A study of Mus musculus with 12 samples.

Results

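The 10 genes described here encode the cyclins that act in the G1 phase of the cell cycle and the inhibitors of their kinases, in 2 mouse lines cultured in each other's medium. They are the D-type cyclins Ccnd1 and Ccnd2, the E-type cyclins Ccne1 and Ccne2, the CIP/KIP inhibitors Cdkn1b (p27) and Cdkn1c (p57), and the INK4 inhibitors Cdkn2a, Cdkn2b, Cdkn2c and Cdkn2d. They were chosen by name, with earlier results of these data known. All 10 were present and passed the filter on low counts in both count tables, which hold 16386 genes for PSC4 and 15309 for KPC4. The sister genes Ccnd3 and Cdkn1a are not among the 10 and are given with the other pathway genes.

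PSC4 is a murine pancreatic stellate cell line, the fibroblast-like cell of the pancreas, and KPC4 is a murine pancreatic adenocarcinoma line. To make the media for PSC4, KPC4 cells received vehicle or 10 µM gemcitabine, a nucleoside analogue that blocks DNA synthesis, for 6 h, were washed, and conditioned starvation medium for 14 h. PSC4 cells then spent 24 h in this Control-SU or Gem-SU. For the second experiment, PSC4 cells spent 6 h in Control-SU or Gem-SU, were washed, and conditioned fresh starvation medium for 18 h, and KPC4 cells spent 24 h in this Control-PSC-SU or Gem-PSC-SU. Each of the 4 groups has 3 libraries, labelled as biological replicates. All groups share the starvation medium, and each cell type is represented by 1 line, whose genotype is not given in the sources used here. No group of the series received gemcitabine directly before RNA isolation.

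D-type cyclins bind the kinases Cdk4 and Cdk6, which phosphorylate the retinoblastoma protein and its relatives and release E2F transcription factors. E2F factors activate genes for DNA replication and also Ccne1 and Ccne2, whose proteins activate the kinase Cdk2 at the entry to S phase. INK4 proteins bind Cdk4 and Cdk6 and block them, while CIP/KIP proteins bind the cyclin and kinase complexes, above all those of Cdk2. The Cdkn2a locus encodes p16Ink4a from its downstream first exon and p19Arf, which inhibits Mdm2, from its upstream first exon, so a count for the whole gene sums both products. This locus and the neighbouring Cdkn2b are often deleted in pancreatic tumours.

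Because Cdkn2a has 2 separate starts, the 250 bases upstream of each are shown, with those of its neighbour Cdkn2b and of Ccne1, a textbook E2F target. They are taken from RefSeq on build GRCm38.p6, all on the minus strand, at chr4:89294620-89294869 for the start of the p19Arf transcript, chr4:89282193-89282442 for the start of the p16Ink4a transcript, chr4:89311033-89311282 for Cdkn2b and chr7:38107491-38107740 for Ccne1. Capitals mark a match to 1 of 4 spellings of an E2F-type motif searched on both strands: TTTCCCGC, TTTCGCGC, TTTGCCGC and TTTGGCGC.
Cdkn2a, p19Arf start: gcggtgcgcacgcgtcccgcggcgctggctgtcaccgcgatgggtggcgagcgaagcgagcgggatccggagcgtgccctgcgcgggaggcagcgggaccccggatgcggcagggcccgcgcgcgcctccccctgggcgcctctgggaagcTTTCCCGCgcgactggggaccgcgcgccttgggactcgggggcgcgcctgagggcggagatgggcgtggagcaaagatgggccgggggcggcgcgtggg
Cdkn2a, p16Ink4a start: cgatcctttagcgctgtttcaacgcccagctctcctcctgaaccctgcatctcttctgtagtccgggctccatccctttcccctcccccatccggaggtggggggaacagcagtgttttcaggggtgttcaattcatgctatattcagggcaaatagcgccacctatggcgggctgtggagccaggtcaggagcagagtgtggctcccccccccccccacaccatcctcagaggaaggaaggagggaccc
Cdkn2b: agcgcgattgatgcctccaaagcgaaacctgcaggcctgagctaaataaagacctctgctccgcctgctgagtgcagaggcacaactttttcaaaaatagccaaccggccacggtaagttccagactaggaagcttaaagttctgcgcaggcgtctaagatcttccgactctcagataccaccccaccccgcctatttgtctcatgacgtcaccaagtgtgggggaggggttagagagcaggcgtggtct
Ccne1: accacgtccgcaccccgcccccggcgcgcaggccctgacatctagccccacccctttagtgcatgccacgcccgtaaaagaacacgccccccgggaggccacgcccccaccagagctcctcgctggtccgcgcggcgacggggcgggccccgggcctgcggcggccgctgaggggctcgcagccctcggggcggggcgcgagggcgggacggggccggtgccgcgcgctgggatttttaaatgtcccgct
The table held 8 windows for 6 of the 10 genes, and TTTCCCGC upstream of the p19Arf start was the only match in them. Over all 32851 windows of this length, 1.86% held a match to any of the 4 spellings. A match describes letters and not binding, and the spellings do not cover every E2F site. The C+G content was 78.4% at the p19Arf start, 60.0% at the p16Ink4a start, 53.6% at Cdkn2b and 76.0% at Ccne1.

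Library totals ranged from 29559414 to 38138356 counts in PSC4 and from 26354328 to 34744150 in KPC4. Values below are CPM, counts scaled to the size of the library, scaled by the trimmed mean of M-values (TMM) within each line, and tests are edgeR's quasi-likelihood tests over all tested genes with Benjamini-Hochberg adjustment and a threshold of 0.05. Values per kb instead use 1 TMM scaling over all 12 libraries. Most defining markers of each labelled cell type were in its table. In PSC4, 10 of 11 stellate or fibroblast markers were in the table (Lum was not), with a summed level of 8138 to 8703 CPM in Control-SU and 2456 to 3670 CPM in Gem-SU, so that the sum moved with the group. Of these 10 markers 8 fell and 0 rose, beside 22.0% of all PSC4 genes lower and 24.3% higher. The other 2, Acta2 (15.7 and 26.9 CPM, log2 difference 0.78, edgeR adjusted p = 0.0538) and Des (2.84 and 3.36 CPM, 0.25, 0.587), had a positive sign. The epithelial markers Epcam, Cdh1, Cldn4 and Esrp1 were not in the PSC4 table, and the sum of the 6 others was 15.9 to 16.4 CPM in Control-SU and 15.8 to 22.1 CPM in Gem-SU. In KPC4, 9 of 10 epithelial markers summed to 6016 to 7457 CPM in Control-PSC-SU and to 6023.5 to 7478 CPM in Gem-PSC-SU, and 6 of 11 stellate or fibroblast markers to 2417 to 2806 CPM and 1848 to 2208 CPM, while Pdgfrb, Dcn, Lum, Thy1 and Des were not in the table. Nearly all of that stellate or fibroblast sum in KPC4 was Vim, at 2391 to 2773 CPM in Control-PSC-SU and 1831 to 2176 CPM in Gem-PSC-SU, and Col3a1 came next with a mean of 21.9 CPM in Control-PSC-SU. Most of the epithelial sum was Krt8, Krt19, Krt18 and Cdh1, with means of 2835, 1816, 1391 and 580 CPM in Control-PSC-SU. Krt7 (179 CPM) and Muc1 (60.1 CPM) were lower, and Cldn7 (9.69 CPM), Epcam (8.89 CPM) and Cldn4 (1.27 CPM) were low. Summed endothelial markers were 0.522 to 1.43 CPM in Control-SU, 2.55 to 4.71 CPM in Gem-SU and at most 3.72 CPM in KPC4. Summed leukocyte markers were at most 5.72 CPM in any library, and Cela1, the only acinar marker of 4 in the tables, was at 7.96 to 15.8 CPM in Control-SU, 1.42 to 2.99 CPM in Gem-SU and 3.01 to 8.20 CPM in KPC4. The share of counts from 13 mitochondrial genes was 4.07% to 7.28% in Control-SU, 2.17% to 3.53% in Gem-SU, 2.33% to 3.90% in Control-PSC-SU and 2.41% to 3.02% in Gem-PSC-SU. The part of these values in the results on PSC4 was not tested. In bulk RNA, fewer cells that express a gene and less of its RNA per cell cannot be told apart, and shares of cells in each cycle phase were not measured.

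In PSC4 cells, medium from gemcitabine-treated tumour cells went with higher E-type cyclins and Ccnd2 and with lower levels of 4 inhibitors. Ccne1 was 6.04-fold and Ccne2 5.26-fold higher in Gem-SU, while Cdkn1b, Cdkn2a, Cdkn2c and the barely detected Cdkn1c fell. Ccnd1, Cdkn2b and Cdkn2d did not pass the test. The 7 of 10 genes that changed, 3 higher and 4 lower, stand beside 46.3% of all 13347 genes tested, 24.3% higher and 22.0% lower. The median log2 fold change of the 10 genes was -0.22, and that of all genes was -0.00.

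Among the E-type cyclins of PSC4, Ccne1 (ENSMUSG00000002068), which activates Cdk2, stood at 15.5, 13.6 and 12.9 CPM in Control-SU replicates 1, 2 and 3 and at 101, 79.2 and 74.2 CPM in Gem-SU replicates 1, 2 and 3. The lowest Gem-SU library lay far above the highest Control-SU library. The means were 14.0 ± 1.30 and 84.7 ± 14.1 CPM (SD, n = 3 each), and the log2 fold change was 2.60 (SE 0.18, 95% interval 2.20 to 3.00, edgeR adjusted p = 4.24e-05). Ccne2 (ENSMUSG00000028212), its close relative with the same kinase partner, stood at 32.0, 33.4 and 28.6 CPM in Control-SU and at 137, 167 and 191 CPM in Gem-SU. Again the groups did not overlap, but the order of the Gem-SU libraries was the reverse of that for Ccne1: replicate 1 was highest for Ccne1 and lowest for Ccne2. The Ccne2 means were 31.3 ± 2.46 and 165 ± 27.5 CPM (SD, n = 3 each), and the log2 fold change was 2.39 (SE 0.17, 95% interval 2.01 to 2.78, edgeR adjusted p = 4.91e-05). Both calls were kept in all 6 fits that left out 1 library. Summed per kilobase of the longest protein-coding transcript, after 1 scaling over all 12 libraries, the E-type cyclins went from 17.6 ± 1.24 to 95.1 ± 2.88 CPM per kb (SD, n = 3 each). Ccne1 made up 40.2% ± 2.05 of that sum in Control-SU and 43.7% ± 8.08 in Gem-SU. These shares depend on the length used. By mean transcript length, Ccne1 and Ccne2 were at 10.9 and 10.7 CPM per kb in Control-SU and at 63.5 and 54.3 in Gem-SU.

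D-type cyclins of PSC4 moved less. Ccnd2 (ENSMUSG00000000184), which pairs with Cdk4 and Cdk6, stood at 191, 251 and 269 CPM in Control-SU and at 288, 417 and 466 CPM in Gem-SU. The ranges did not overlap, although Gem-SU replicate 1 lay close to Control-SU replicate 3. The means were 237 ± 40.5 and 390.0 ± 92.1 CPM (SD, n = 3 each), a 1.65-fold rise with a log2 fold change of 0.72 (SE 0.22, 95% interval 0.22 to 1.22, edgeR adjusted p = 0.0264). The Ccnd2 call was lost without Control-SU replicate 1 (adjusted p = 0.0837), 2 (0.0589) or 3 (0.0585) and without Gem-SU replicate 2 (0.0921) or 3 (0.0860), each from edgeR with fewer samples. Ccnd1 (ENSMUSG00000070348), the D-type cyclin most closely tied to growth factor signals, stood at 149.9, 98.8 and 139 CPM in Control-SU and at 184, 192 and 162 CPM in Gem-SU. Here too the groups did not overlap, but Control-SU replicate 2 lay apart from the other two. With means of 129 ± 26.9 and 179 ± 15.5 CPM (SD, n = 3 each), Ccnd1 had a log2 difference of 0.47 (SE 0.18, 95% interval 0.05 to 0.89) that did not pass the test (edgeR adjusted p = 0.0629). It passed with DESeq2 (adjusted p = 0.0420) and with edgeR without Control-SU replicate 1 (adjusted p = 0.0491), over a range of 0.0235 to 0.188 in all alternatives. Ccnd3, the remaining D-type cyclin, had a log2 difference of -0.15 in edgeR (adjusted p = 0.637). Per kilobase of the longest protein-coding transcript it made up 35.3% ± 4.5 of the D-type sum in Control-SU and 24.7% ± 7.55 in Gem-SU (SD, n = 3 each). Ccnd2 made up 34.0% ± 7.84 of that sum in Control-SU and 42.3% ± 9.49 in Gem-SU, and neither shift in share was tested. Here too the shares depend on the length used. By mean transcript length, Ccnd2 was at 107 CPM per kb in Control-SU, Ccnd3 at 81.5 and Ccnd1 at 35.0.

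Of the 3 CIP/KIP genes, Cdkn1b and Cdkn1c fell in PSC4, while Cdkn1a, given with the pathway genes, rose from 38.0 to 949.8 CPM. Cdkn1b (ENSMUSG00000003031), whose product p27 holds back Cdk2 in resting cells, stood at 123, 165 and 127 CPM in Control-SU and at 84.3, 73.3 and 77.0 CPM in Gem-SU. All 3 Gem-SU libraries were below all 3 Control-SU libraries, and they differed little among themselves. The means were 138 ± 23.1 and 78.2 ± 5.59 CPM (SD, n = 3 each), a 1.77-fold lower level with a log2 fold change of -0.82 (SE 0.16, 95% interval -1.18 to -0.46, edgeR adjusted p = 0.00339), and the call was kept whichever library was left out. Cdkn1c (ENSMUSG00000037664), an imprinted gene whose product p57 also binds cyclin and Cdk2 complexes, was close to the limit of detection, at 0.754, 0.852 and 0.813 CPM in Control-SU and 0.208, 0.0300 and 0.271 CPM in Gem-SU. These values rest on 25 to 27 counts per Control-SU library and on 1 to 8 counts per Gem-SU library, with Gem-SU replicate 2 the lowest, and the groups did not overlap. The log2 fold change was -2.23 (SE 0.69, 95% interval -3.80 to -0.66, edgeR adjusted p = 0.0276). That call was lost with no filter on low counts (adjusted p = 0.0516) and without Control-SU replicate 1 (0.0653) or 3 (0.0740) or Gem-SU replicate 1 (0.0527) or 2 (0.0873), each from edgeR.

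Among the INK4 genes of PSC4, Cdkn2a and Cdkn2c fell and Cdkn2b and Cdkn2d did not pass the test. Cdkn2a (ENSMUSG00000044303) stood at 522, 303 and 378 CPM in Control-SU and at 271, 159 and 127 CPM in Gem-SU. The groups did not overlap, with Gem-SU replicate 1 just under Control-SU replicate 2. The means were 401 ± 111 and 186 ± 75.9 CPM (SD, n = 3 each), a 2.16-fold lower level with a log2 fold change of -1.11 (SE 0.31, 95% interval -1.81 to -0.41, edgeR adjusted p = 0.0181). How this fall divides between p16Ink4a and p19Arf cannot be told from counts per gene. Cdkn2c (ENSMUSG00000028551), encoding p18Ink4c, stood at 123, 65.3 and 93.4 CPM in Control-SU and at 65.9, 35.2 and 33.2 CPM in Gem-SU. Its ranges touched, since Gem-SU replicate 1 lay just above Control-SU replicate 2. The means were 93.7 ± 28.6 and 44.8 ± 18.3 CPM (SD, n = 3 each), a 2.09-fold lower level with a log2 fold change of -1.07 (SE 0.31, 95% interval -1.78 to -0.36, edgeR adjusted p = 0.0223). Leaving out Control-SU replicate 1 ended both calls (edgeR adjusted p = 0.0549 for Cdkn2a and 0.0699 for Cdkn2c), as did leaving out Gem-SU replicate 2 (0.0781 and 0.0906) or Gem-SU replicate 3 (0.0523 and 0.0667).

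Cdkn2b (ENSMUSG00000073802), which encodes p15Ink4b beside Cdkn2a, stood at 47.5, 33.4 and 38.9 CPM in Control-SU and at 42.5, 39.5 and 30.2 CPM in Gem-SU of PSC4. The groups overlapped widely, and the log2 difference of -0.09 had a 95% interval from -0.53 to 0.35 (edgeR adjusted p = 0.715). Cdkn2d (ENSMUSG00000096472), encoding p19Ink4d, stood at 26.3, 12.3 and 23.9 CPM in Control-SU and at 22.6, 14.5 and 11.9 CPM in Gem-SU. Its groups overlapped as well, with a log2 difference of -0.34 (SE 0.33, 95% interval -1.10 to 0.41, edgeR adjusted p = 0.421). For all 4 INK4 genes replicate 1 was the highest library within Control-SU and within Gem-SU. Over the 10 genes, 7 had groups that did not overlap in PSC4, 4 higher in Gem-SU and 3 lower, beside 56.4% of all genes tested, 29.3% higher and 27.1% lower. The number that passed the test ranged from 3, without Gem-SU replicate 2, to 8, and was 4 without Control-SU replicate 1 or Gem-SU replicate 3.

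**Figure D1:**
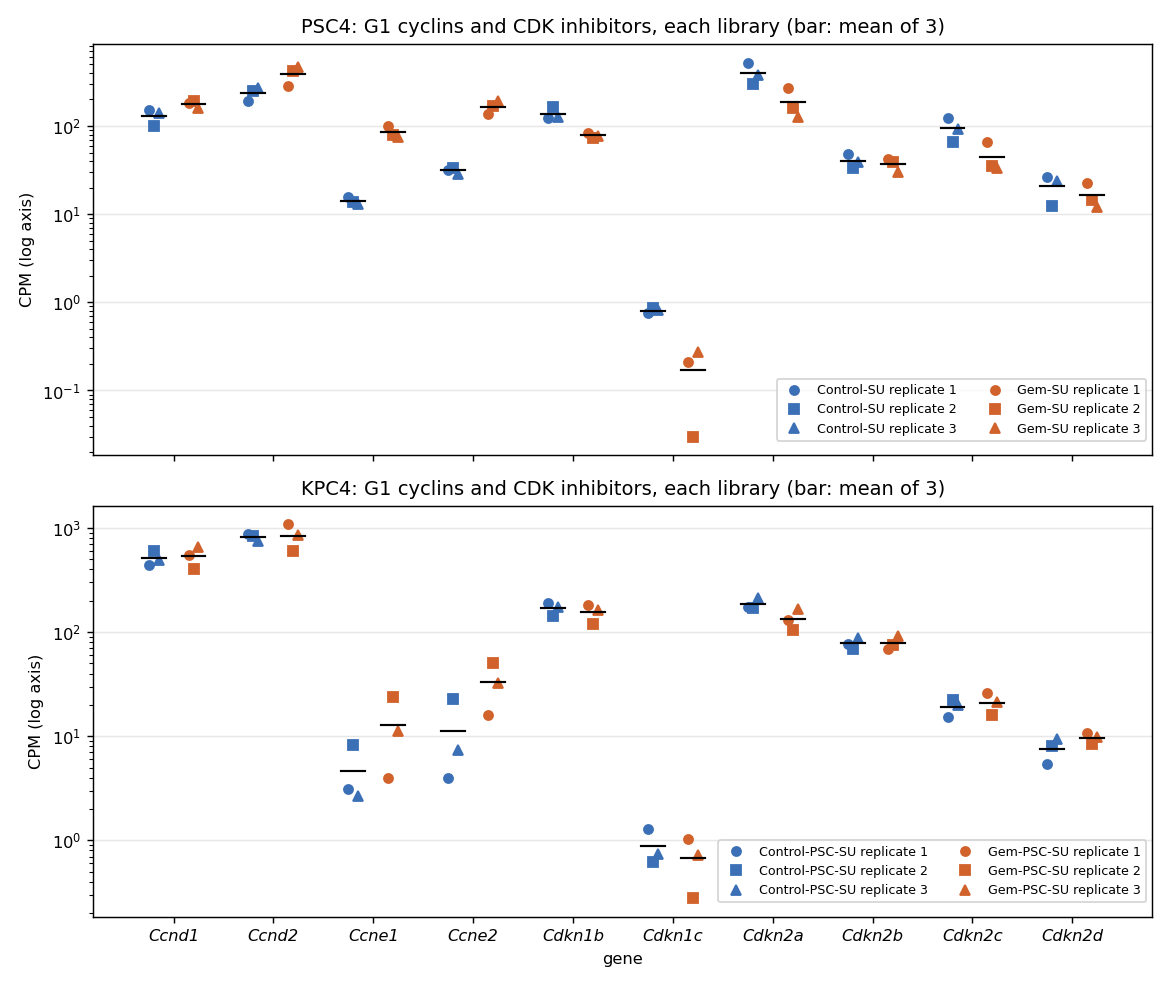
CPM of each gene in each library on a log axis, PSC4 above and KPC4 below; colours are the media, symbols the replicate numbers and bars the means of 3. In PSC4 the E-type cyclins separate most, from 12.9 to 15.5 CPM up to 74.2 to 101 CPM for Ccne1, while in KPC4 the groups overlap for every gene but Cdkn2a.

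In the authors' deposited table for PSC4, 5 of the 10 genes had an adjusted p under 0.05. The share of all genes under 0.05 in that table was not computed, and edgeR called 46.3% of all PSC4 genes. The 5 genes were Ccne1 (log2 fold change 2.59, adjusted p = 5.55e-36), Ccne2 (2.18, 5.76e-11), Cdkn1b (-0.66, 7.34e-05), Cdkn2a (-1.13, 0.00426) and Cdkn2c (-1.07, 0.0119) in the authors' deposited table. Ccnd2 (0.47, 0.125), Ccnd1 (0.45, 0.0527) and Cdkn1c (-1.56, 0.169) had the same sign there and did not pass. DESeq2 run on the deposited counts gave 0.71 for Ccnd2 (adjusted p = 0.00654) and -2.26 for Cdkn1c (0.0131), so the values of these genes differ between that run and the authors' deposited table, whose model is not given in the sources used here. None of the 10 genes passed for KPC4 in the authors' deposited table, where Ccne1 had the lowest adjusted p (log2 fold change 1.38, adjusted p = 0.122). The share of all genes that passed was not computed for KPC4 either.

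In KPC4 cells, 0 of the 10 genes passed edgeR's test between Gem-PSC-SU and Control-PSC-SU, beside 0 of 13236 genes tested. Unadjusted, Ccne1 and Ccne2 were under 0.05, beside 17.0% of all genes. DESeq2 called 0 of the 10, beside 823 of the same 13236 genes. The labels number the biological replicates and do not say that equal numbers belong together. In the KPC4 counts, same-numbered libraries deviated together from their group means for each of the 3 numbers. The block in KPC4 therefore rests on a pairing read from these same counts. With the number as a block in the edgeR fit, Ccne1 and Ccne2 passed, both higher in Gem-PSC-SU, and the other 8 genes did not, beside 8.85% of all genes called, 6.07% higher and 2.78% lower.

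Ccne1 stood at 3.14, 8.24 and 2.68 CPM in Control-PSC-SU replicates 1, 2 and 3 of KPC4 and at 3.99, 23.7 and 11.2 CPM in Gem-PSC-SU replicates 1, 2 and 3. The groups overlapped, because Control-PSC-SU replicate 2 was above Gem-PSC-SU replicate 1, yet each Gem-PSC-SU library was above the control of the same number, by 1.27-fold, 2.88-fold and 4.18-fold. Without the block, Ccne1 had a log2 difference of 1.47 (SE 0.64, 95% interval 0.01 to 2.92, edgeR adjusted p = 0.291). With it, the log2 fold change was 1.33 (SE 0.33, edgeR adjusted p = 0.0482), at the low end of a range of 0.0482 to 0.715 over the alternatives. Ccne2 stood at 3.95, 22.8 and 7.30 CPM in Control-PSC-SU and at 16.0, 51.0 and 32.2 CPM in Gem-PSC-SU. Replicate 2 was the highest in both groups, so that the Ccne2 ranges overlapped while the ratios at the same number were 4.06, 2.24 and 4.41. The log2 difference was 1.54 without the block (SE 0.63, 95% interval 0.11 to 2.98, edgeR adjusted p = 0.267) and the log2 fold change 1.76 with it (SE 0.23, adjusted p = 0.00560, range over the alternatives 0.00560 to 0.651).

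KPC4 replicate 2 was also the highest of its group in the summed level of 12 E2F target genes, which was 296, 963 and 404 CPM in Control-PSC-SU and 913, 2025 and 1410 CPM in Gem-PSC-SU for replicates 1, 2 and 3. In PSC4 this sum was 1640, 1239 and 1437 CPM in Control-SU and 3214, 2798 and 2843 CPM in Gem-SU. The Gem libraries were above their same-numbered controls in both lines, and the sums did not overlap between media in PSC4 but did in KPC4.

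**Figure D2:**
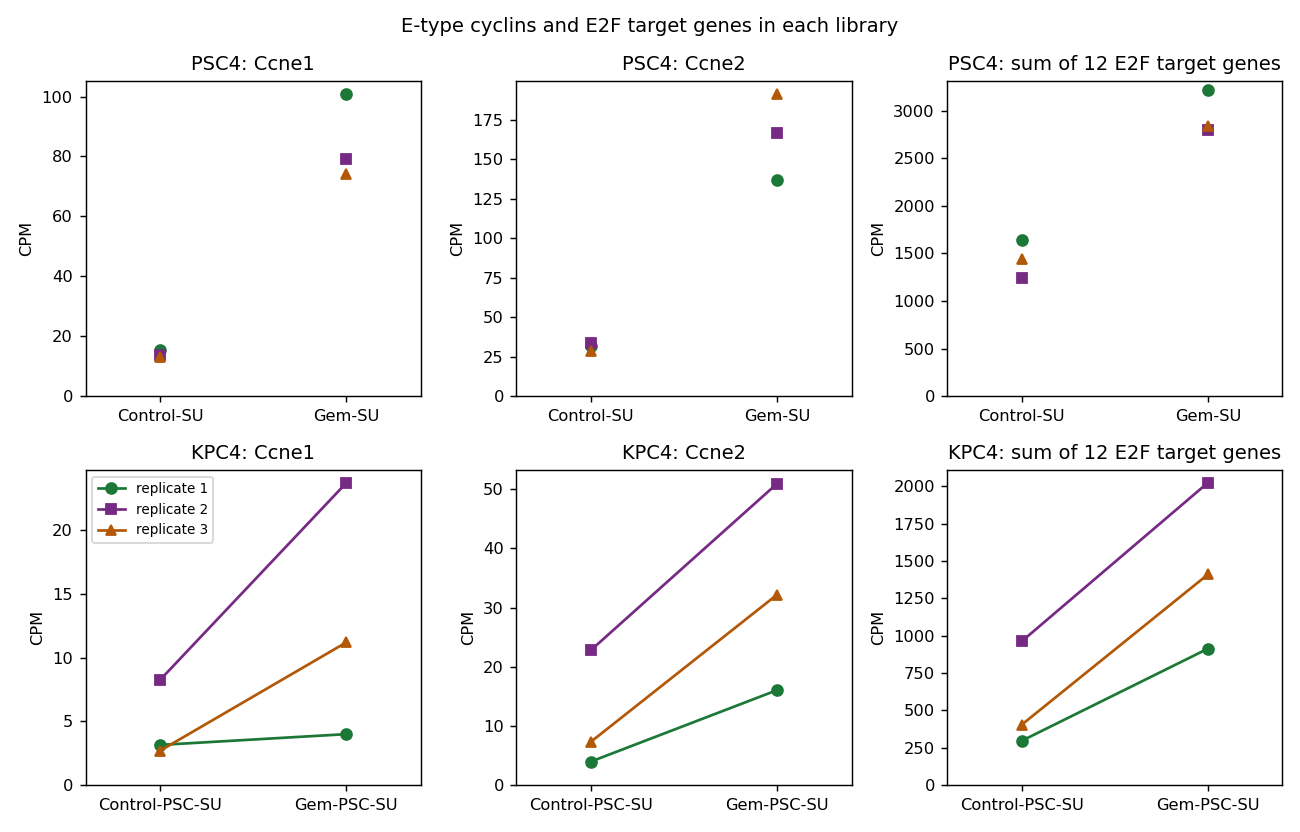
CPM of Ccne1, Ccne2 and the sum of 12 E2F target genes in each library, on linear axes that start at 0 and differ between panels. Symbols are replicate numbers, joined in KPC4, where same-numbered libraries deviated together. The labels do not state a pairing. In KPC4 all 9 lines rise, and replicate 2 is the highest in both media, for Ccne2 at 22.8 and 51.0 CPM.

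The D-type cyclins of KPC4 were abundant and did not pass the test. Ccnd1 stood at 439, 599 and 498 CPM in Control-PSC-SU and at 548, 405 and 653 CPM in Gem-PSC-SU. The groups overlapped completely, with a log2 difference of 0.06 (SE 0.21, 95% interval -0.42 to 0.55, edgeR adjusted p = 0.901). Ccnd2 stood at 871, 832 and 745 CPM in Control-PSC-SU and at 1088, 597 and 848 CPM in Gem-PSC-SU. Gem-PSC-SU held both the highest and the lowest library of Ccnd2, and the log2 difference was 0.05 (SE 0.22, 95% interval -0.46 to 0.55, edgeR adjusted p = 0.928). For both genes Gem-PSC-SU replicate 2, the library with the most Ccne1 and Ccne2, was the lowest of the 6.

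Of the inhibitors in KPC4, Cdkn2a came closest to the threshold. It stood at 175, 169.7 and 213 CPM in Control-PSC-SU and at 132, 105 and 166 CPM in Gem-PSC-SU. This was the only 1 of the 10 genes whose groups did not overlap in KPC4, beside 22.8% of all genes tested, 10.9% lower, and its ratios at the same number were 0.754, 0.621 and 0.778. The means of 186 ± 23.6 and 134 ± 30.2 CPM (SD, n = 3 each) gave a log2 difference of -0.47 (SE 0.21, 95% interval -0.94 to 0.00), which did not pass without the block (edgeR adjusted p = 0.293) or with it (adjusted p = 0.0570). Cdkn1b stood at 189, 142 and 176 CPM in Control-PSC-SU and at 182, 121 and 164 CPM in Gem-PSC-SU. Its libraries interleaved, with a log2 difference of -0.12 (95% interval -0.59 to 0.35, edgeR adjusted p = 0.786). Cdkn1c, counted 9 to 45 times per library, stood at 1.30, 0.623 and 0.737 CPM in Control-PSC-SU and at 1.03, 0.279 and 0.716 CPM in Gem-PSC-SU, with groups that overlapped. Its log2 difference of -0.40 had a wide 95% interval from -1.81 to 1.02 (edgeR adjusted p = 0.769).

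The other INK4 genes of KPC4 overlapped between media. Cdkn2b stood at 76.7, 69.6 and 88.7 CPM in Control-PSC-SU and at 68.4, 74.8 and 91.9 CPM in Gem-PSC-SU. The means of Cdkn2b were the same to 3 digits, 78.4 ± 9.65 and 78.4 ± 12.2 CPM (SD, n = 3 each), and the 95% interval of the log2 difference ran from -0.43 to 0.43. Cdkn2c stood at 15.4, 22.2 and 20.0 CPM in Control-PSC-SU and at 25.7, 16.0 and 21.4 CPM in Gem-PSC-SU. No library group was higher as a whole, and the log2 difference of 0.13 had a 95% interval from -0.43 to 0.70 (edgeR adjusted p = 0.811). Cdkn2d stood at 5.42, 8.09 and 9.34 CPM in Control-PSC-SU and at 10.8, 8.49 and 9.83 CPM in Gem-PSC-SU. Control-PSC-SU replicate 1 was the low library, and the log2 difference was 0.35 (95% interval -0.26 to 0.96, edgeR adjusted p = 0.530).

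**Figure D3:**
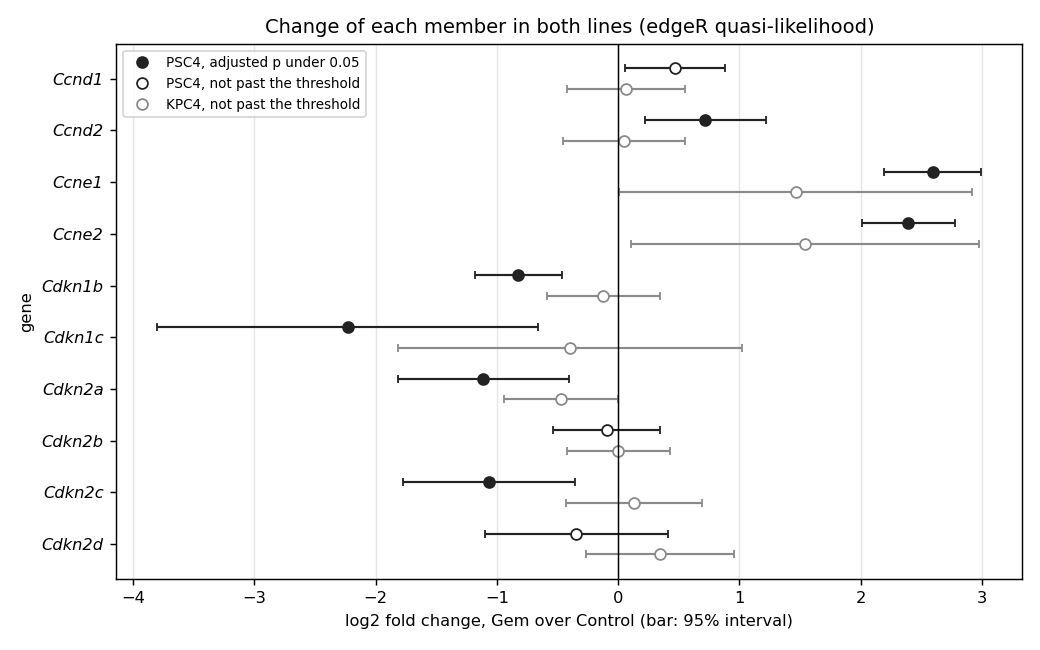
Log2 fold change of each gene, Gem medium over control medium, with its 95% interval from edgeR without the replicate block, for PSC4 (black) and KPC4 (grey); filled points passed the adjusted threshold. In PSC4 the 2 E-type cyclins and Ccnd2 lie to the right and 4 inhibitors to the left, while every KPC4 interval except those of Ccne1 and Ccne2 reaches 0.

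Whether the responses of the lines differ was tested as an interaction in 1 fit over all 12 libraries, and 0 of the 10 genes passed in edgeR, beside 9.85% of 13632 genes tested. Unadjusted, Cdkn1b and Cdkn2c were under 0.05, beside 25.5% of all genes. DESeq2 called Cdkn2c (adjusted p = 0.0372), beside 2140 of all genes. The Cdkn2c response was lower in PSC4 by a log2 difference of -1.25 (SE 0.43, 95% interval -2.18 to -0.33, edgeR adjusted p = 0.0833, range over the alternatives 0.0156 to 0.188). For Cdkn1b the difference was -0.76 (SE 0.27, 95% interval -1.34 to -0.17, edgeR adjusted p = 0.0969, range 0.0249 to 0.214). The responses of the E-type cyclins were not shown to differ: 1.10 for Ccne1 (SE 0.71, 95% interval -0.44 to 2.63, edgeR adjusted p = 0.359) and 0.82 for Ccne2 (SE 0.71, 95% interval -0.71 to 2.34, edgeR adjusted p = 0.502). With the number as a block in KPC4 alone, an alternative chosen after seeing the data, Cdkn1b (log2 difference -0.74, edgeR adjusted p = 0.0343) and Ccne1 (1.22, 0.0481) passed, beside 2145 of all genes. With a block in both lines, Cdkn1b, Cdkn2a, Cdkn2c and Ccne1 passed, beside 21.9% of all genes. Without KPC4 Gem-PSC-SU replicate 2, Cdkn1b (edgeR adjusted p = 0.0253) and Cdkn2c (0.0432) passed, and without PSC4 Gem-SU replicate 1 Cdkn2c did (0.0184). The range of all genes called without 1 library is given with the dependence on the processing.

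The lines themselves differed in these genes. Between Control-SU PSC4 and Control-PSC-SU KPC4 libraries, 8 of the 10 genes passed edgeR's test, 5 higher in PSC4 and 3 higher in KPC4, beside 42.9% of 13632 genes, 22.3% higher in PSC4 and 20.6% lower. Line and medium cannot be told apart here, and these control libraries are the same ones that serve in the comparisons of media. KPC4 held more D-type cyclin and Cdkn2b: Ccnd1 was 3.98-fold higher than in PSC4 (log2 difference, PSC4 minus KPC4, -1.99, SE 0.23, edgeR adjusted p = 7.93e-06), Ccnd2 3.47-fold (-1.79, SE 0.25, 5.32e-05) and Cdkn2b 1.97-fold (-0.98, SE 0.20, 0.00111). PSC4 held more of the other INK4 genes, with Cdkn2c 4.86-fold (log2 difference 2.28, SE 0.32, edgeR adjusted p = 5.23e-05), Cdkn2d 2.72-fold (1.44, SE 0.33, 0.00275) and Cdkn2a 2.15-fold higher (1.10, SE 0.29, 0.00662). The INK4 genes did not differ between the lines in 1 direction. The E-type cyclins were also higher in PSC4, Ccne1 by 2.96-fold (log2 difference 1.56, SE 0.52, edgeR adjusted p = 0.0251) and Ccne2 by 2.73-fold (1.45, SE 0.51, 0.0344). Both E-type calls were lost in edgeR without PSC4 Control-SU replicate 1 (adjusted p = 0.0597 for Ccne1 and 0.0695 for Ccne2), 2 (0.0557 and 0.0866) or 3 (0.0505 and 0.0648), or without KPC4 Control-PSC-SU replicate 1 (0.109 and 0.120) or 3 (0.0980 and 0.122). Cdkn1b (log2 difference -0.30, 95% interval -0.71 to 0.11, edgeR adjusted p = 0.227) and Cdkn1c (-0.14, 95% interval -1.59 to 1.30, 0.881) did not pass.

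For the order of the genes within a group, CPM from 1 scaling over all 12 libraries were divided by the length of the longest protein-coding transcript. In Control-SU PSC4, Cdkn2a was first at 453 ± 128 CPM per kb (SD, n = 3), far above the rest. Cdkn2c (38.4 ± 11.9), Ccnd2 (37.8 ± 6.42), Ccnd1 (35.0 ± 7.51), Cdkn1b (30.7 ± 4.88) and Cdkn2b (29.1 ± 5.36) followed, and neighbours among these 5 did not differ beyond their spread. Cdkn2d (14.8 ± 5.40) and Ccne2 (10.5 ± 0.767) overlapped too, above Ccne1 (7.08 ± 0.671) and Cdkn1c (0.428 ± 0.0239). In Gem-SU PSC4, the E-type cyclins stood among the D-type cyclins at this choice of length. Below Cdkn2a at 203 ± 82.5 CPM per kb came Ccnd2 (60.3 ± 14.3), Ccne2 (53.7 ± 8.96), Ccnd1 (46.9 ± 4.18) and Ccne1 (41.4 ± 6.83), whose libraries overlapped from neighbour to neighbour. Cdkn2b (26.3 ± 4.53), Cdkn2c (17.7 ± 7.21), Cdkn1b (16.8 ± 1.15), Cdkn2d (11.3 ± 3.81) and Cdkn1c (0.0872 ± 0.0641) were lower, and Cdkn2b, Cdkn2c and Cdkn1b overlapped with their neighbours among them.

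In Control-PSC-SU KPC4, Cdkn2a (211 ± 25.0 CPM per kb, SD, n = 3) was above Ccnd1 (139 ± 22.9) and Ccnd2 (131 ± 11.1), and the D-type cyclins overlapped with each other. Cdkn2b (57.3 ± 6.54) and Cdkn1b (37.8 ± 5.2) came next, each apart from its neighbours. Cdkn2c (7.90 ± 1.47), Cdkn2d (5.44 ± 1.41), Ccne2 (3.85 ± 3.44) and Ccne1 (2.39 ± 1.59) overlapped from neighbour to neighbour, and Cdkn1c was last (0.473 ± 0.193). In Gem-PSC-SU KPC4 the order began in the same way, with Cdkn2a (153 ± 36.4), Ccnd1 (146 ± 36.1) and Ccnd2 (136 ± 42.0), all overlapping, then Cdkn2b (57.5 ± 9.15) and Cdkn1b (35.0 ± 7.73). Ccne2 (11.1 ± 5.68) stood next, overlapping with Cdkn2c (8.71 ± 2.18), Cdkn2d (6.96 ± 0.948) and Ccne1 (6.54 ± 4.92), and Cdkn1c was last (0.365 ± 0.209). The place of Ccnd2 depends on the length used. With the mean length of its transcripts, an alternative chosen after seeing the data, Ccnd2 was at 371 CPM per kb in Control-PSC-SU KPC4 and at 386 in Gem-PSC-SU, above Cdkn2a in both, and at 107 in Control-SU PSC4 and 171 in Gem-SU, where Cdkn2a stayed first. In Gem-SU PSC4 the mean length put Ccnd2 well above Ccne1 (63.5) and Ccne2 (54.3), and Ccnd1 below them (46.9).

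**Figure D4:**
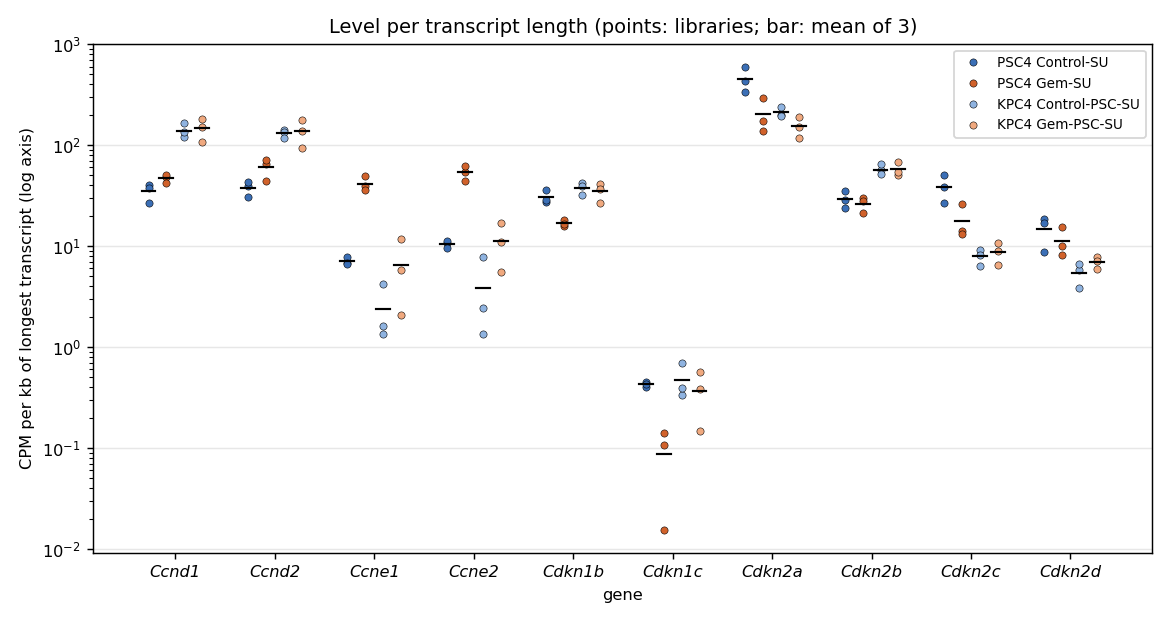
Level of each gene per kilobase of its longest protein-coding transcript on a log axis; points are libraries, colours the 4 groups and bars the means of 3. At this choice of length, Ccne1 and Ccne2 of Gem-SU PSC4, at 41.4 and 53.7 CPM per kb, stand at the height of its D-type cyclins. Cdkn1c is the lowest gene in every group.

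The partners of these genes in the pathway were followed as lists, described by counts. The lists were chosen with earlier results of these data known, so their counts describe and do not test. Of 12 partners and further regulators of the kinases, 4 rose and 0 fell in PSC4, with a median log2 fold change of 0.10, beside 24.3% of all PSC4 genes higher and 22.0% lower. Cdkn1a, the p53-induced CIP/KIP inhibitor p21, went from 38.0 ± 8.35 to 949.8 ± 165 CPM (SD, n = 3 each), opposite to Cdkn1b and Cdkn1c (log2 fold change 4.64, edgeR adjusted p = 1.93e-05). Cdc25a, the phosphatase that activates Cdk2, rose by 1.88 on the log2 scale (0.000101), Ccna2, the S phase cyclin, by 0.93 (0.00180), and Cdk2 itself by 0.65 (edgeR adjusted p = 0.0107). Cdk4 (log2 difference -0.30, edgeR adjusted p = 0.329) and Cdk6 (0.04, 0.907), the kinases that INK4 proteins bind, did not pass. In KPC4, 0 of these 12 passed in edgeR, with 4 under an unadjusted 0.05, beside 17.0% of all genes. DESeq2 called 3, beside 823 of all genes. With the block 3 passed, all higher, beside 6.07% of all genes higher and 8.85% in either direction: Ccna2 (log2 fold change 1.90, edgeR adjusted p = 0.00189), Cdkn3 (1.32, 0.0148), a phosphatase of Cdk2, and Cdc25a (0.86, 0.0273). Cdkn1a in KPC4 had a log2 difference of 1.28 with the block (edgeR adjusted p = 0.0691).

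Of 13 genes for pocket proteins and E2F factors, 6 rose and 2 fell in PSC4, with a median log2 fold change of 0.39, beside 24.3% and 22.0% of all genes. E2f8 (log2 fold change 1.99, edgeR adjusted p = 6.17e-05) and E2f7 (1.71, 0.000112), both repressors, rose with the activators E2f2 (2.22, 0.000445) and E2f3 (1.19, 0.00124). Of the 3 pocket proteins, Rbl1 (log2 fold change -0.73, edgeR adjusted p = 0.00327) and Rbl2 (-0.84, 0.00351), which bind repressor E2F factors, fell, and Rb1, the retinoblastoma protein gene, rose (0.50, 0.0346). In KPC4, 0 of 13 passed in edgeR without the block, with 3 under an unadjusted 0.05, beside 17.0% of all genes. DESeq2 called 3, beside 823 of all genes. With the block 4 were higher, among them E2f8 (log2 fold change 1.39, edgeR adjusted p = 0.00215), E2f7 (1.54, 0.00684) and E2f2 (1.56, 0.00746), and 0 lower, beside 6.07% and 2.78% of all genes.

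Of the 12 E2F target genes of S phase entry, 9 rose and 0 fell in PSC4, with a median log2 fold change of 1.02, beside 24.3% of all genes higher and 22.0% lower. Rrm2, a subunit of the ribonucleotide reductase that gemcitabine metabolites inhibit, went from 55.2 ± 11.7 to 434 ± 29.1 CPM (SD, n = 3 each; log2 fold change 2.97, edgeR adjusted p = 4.04e-05). Cdc6, which loads the replicative helicase, rose by 2.20 on the log2 scale (4.74e-05), Tyms, which makes thymidylate, by 1.48 (0.000143), and the transcription factor Mybl2 by 1.72 (edgeR adjusted p = 0.000145). Pcna (log2 difference 0.42, edgeR adjusted p = 0.170), Tk1 (0.60, 0.145) and Cdk1 (0.09, 0.737) did not pass. In KPC4, 0 of 12 passed in edgeR without the block. Unadjusted, 12 of 12 were under 0.05, all higher, beside 17.0% of all genes in either direction. DESeq2 called 6, beside 823 of all genes. With the block 11 passed, all higher and all but Cdk1, beside 6.07% of all genes higher, and the median log2 difference without the block was 1.46. The helicase loader Cdt1 had a log2 fold change of 1.58 with the block (edgeR adjusted p = 0.00109), the helicase subunit Mcm3 1.81 (0.000894), Cdc6 2.49 (0.00379) and Tk1, a thymidine kinase, 1.26 (0.0242).

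Of 12 genes that control the stability of G1 cyclins and p27, 4 rose and 2 fell in PSC4, with a median log2 fold change of 0.07, a share near the 46.3% of all genes called. Fbxw7, the ubiquitin ligase subunit that recognises cyclin E, rose by 1.00 on the log2 scale (0.00109), Usp28, a deubiquitinase of Fbxw7 targets, by 0.82 (0.00363), and Skp2, which targets p27, by 0.89 (edgeR adjusted p = 0.00247). Fbxo31, which targets cyclin D1, fell (log2 fold change -1.13, edgeR adjusted p = 0.00201). Their protein effects were not measured. In KPC4, 0 of 12 passed in edgeR without the block, 0 were under an unadjusted 0.05 and DESeq2 called 0. With the block Cks1b, the cofactor of Skp2, was higher (log2 fold change 0.65, edgeR adjusted p = 0.0296) and Fbxo31 lower (-0.92, 0.0262), beside 8.85% of all genes called.

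Of 12 transcriptional regulators of these genes, 6 rose and 2 fell in PSC4, with a median log2 fold change of 0.46, beside 24.3% and 22.0% of all genes. Myc (log2 fold change 1.73, edgeR adjusted p = 0.000103), which activates Ccnd2, and its partner Zbtb17 (0.85, 0.00418) rose. Among the Polycomb proteins that repress Cdkn2a, Ezh2 rose (log2 fold change 1.19, edgeR adjusted p = 0.000385) while Cbx7 (-1.83, 0.000708) and Bmi1 (-0.60, 0.00951) fell. In KPC4, 0 of 12 passed in edgeR without the block, with 4 under an unadjusted 0.05, beside 17.0% of all genes. DESeq2 called 1, beside 823 of all genes. With the block Foxm1, a transcription factor of proliferating cells (log2 fold change 1.50, edgeR adjusted p = 0.00560), and Ezh2 (0.55, 0.0483) were higher, beside 6.07% of all genes.

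**Figure D5:**
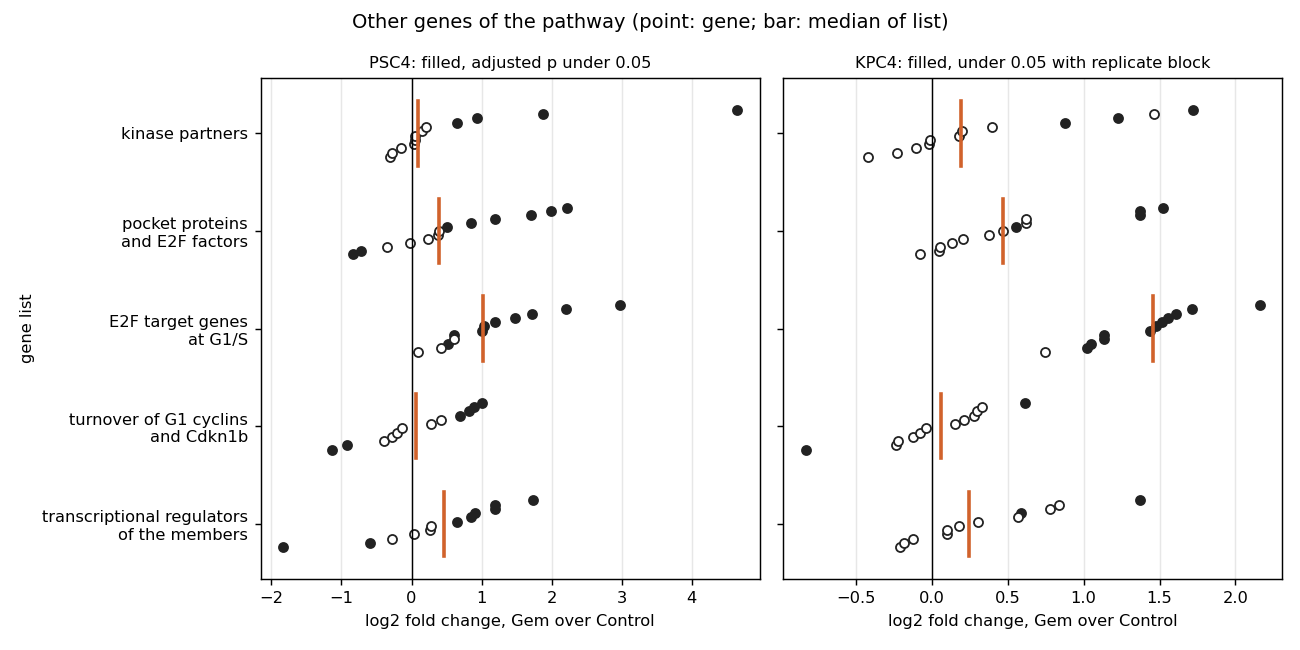
Log2 fold change of each gene of 5 pathway lists, Gem medium over control medium, in PSC4 and KPC4; orange bars are list medians, and filled points passed the adjusted threshold (in KPC4 with the replicate block, at positions without it). The scales of the panels differ. All 12 E2F target genes lie to the right of 0 in both lines, with medians of 1.02 and 1.46.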

How the data were processed

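Total RNA from 12 cultures was sequenced on an Illumina NovaSeq X Plus instrument, as given in the labels. For each line, the authors deposited 1 table of counts per gene that holds whole numbers. The submitters' processing notes name Salmon, whose estimated counts need not be whole, so the deposited values are treated as rounded estimated counts. Those notes also list FastQC, Trim Galore 0.6.10, cutadapt 5.2, R 4.5.1, DESeq2 and build GRCm39, with no role or order. Estimated counts can divide reads between related genes, and how reads shared by overlapping transcripts were assigned is not given in the sources used here. The smallest row total was 0 in the PSC4 table and 11 in the KPC4 table. The authors' deposited comparison tables hold log2 fold changes with raw and adjusted p-values and were used as the authors' values only. All per-sample columns were mapped to samples by name, and 0 were unused. Symbols came from GENCODE M21, which matched 99.7% of identifiers in each table.

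Tests used edgeR 4.0.16 in R 4.3.3 on counts with TMM scaling, filterByExpr and robust quasi-likelihood F tests, 1 fit per line, and 1 fit over 12 libraries for the interaction and the control lines. The script was tested on simulated data. Intervals cover the spread between the 3 libraries of a group. The fold change of a gene is coded as Gem over control medium. With 3 libraries against 3, an exact permutation test of 1 gene cannot go below 0.1, so none is given. Same-numbered libraries deviated together in KPC4 for each number (correlations of deviations 0.450, 0.545 and 0.355, with 0.1 as the minimum). In PSC4 numbers 1 and 3 reached that minimum (0.599 and 0.101) and number 2 did not (-0.0320). Control-SU replicates 2 and 3 had higher correlations with a Gem-SU library of another number (0.445 and 0.289). The block is given beside KPC4 results, and in PSC4 it is an alternative. No pair of replicates agreed within sampling noise. The 10 genes and all lists were chosen with earlier results of these data known. Named are all 10 genes and, from each list, up to 4 genes with the smallest p in a line; Cdk4, Cdk6, Ccnd3, Pcna, Cdk1, Rb1, Rbl1, Rbl2 and Bmi1 were added after their values were seen, because they complete a count or a protein family. Alternatives were DESeq2 1.42.0, its size factors, other count filters, other edgeR fits, the replicate block and leaving out each library. Genes with the pattern most like that of Ccne1, which had the smallest p of the 10 in PSC4, are given, and those for Cdkn1b are not reported here.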

Additional observations from a re-analysis of the deposited data

How the results depend on the processing

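In PSC4, the 7 genes of the 10 that passed and the 6177 of all genes stayed within 1.5 times of those counts under other scaling, filters and fits, with 8 and 7266 with a replicate block and 8 and 6816 with DESeq2. In PSC4 the replicate numbers did not all reach the minimum for pairing, since number 2 had a correlation of deviations of -0.0320. With the block Ccnd1 also passed (edgeR adjusted p = 0.0235). The SE with and without the block was 0.17 and 0.31 for Cdkn2a, 0.16 and 0.31 for Cdkn2c, and 0.79 and 0.69 for Cdkn1c. Leaving out 1 library gave 3 to 6 of the 10 and 4061 to 6826 of all genes. In KPC4, the block gave 2 of the 10 and 1171 of all genes, DESeq2 0 and 823, 1 fit over 12 libraries 0 and 610, and the other fits of all libraries 0 of either. Leaving out 1 KPC4 library gave 0 of the 10 and 0 to 1129 of all genes, the most without Gem-PSC-SU replicate 1. For the interaction, the block gave 4 of the 10 and 2988 of all genes, the block in KPC4 only, added after seeing the data, 2 and 2145, and DESeq2 1 and 2140, against 0 and 1343. Leaving out 1 library gave 0 to 2 and 610 to 1993. The comparison of the control lines gave 8 of the 10 under other settings and 6 to 8 without 1 library, with 4954 to 6272 of all genes.

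The sign of Cdkn2b in KPC4 turned with no filter on low counts (-0.0058) and with the replicate block (-0.0035), where its log2 difference was near 0. Leaving out 1 library also turned signs of genes that had not passed. The log2 difference ranged from -0.24 to 0.049 for Cdkn2b in PSC4, and in KPC4 from -0.13 to 0.10 for Cdkn2b, -0.041 to 0.30 for Cdkn2c, -0.10 to 0.23 for Ccnd1, -0.18 to 0.25 for Ccnd2 and -0.25 to 0.032 for Cdkn1b. For the interaction it ranged from -0.26 to 0.00036 for Cdkn2b and from -0.21 (without KPC4 Control-PSC-SU replicate 2) to 1.25 for Ccne2, and between control lines from -0.34 to 0.17 for Cdkn1c. The cause was not tested. Cdkn1c, with as few as 1 count in a library, is the gene most limited by depth, and for the others the spread between 3 libraries sets the precision.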

Other observations

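The genes that flank Cdkn2a and Cdkn2b did not all move in the same direction. Of 6 flanking genes tested in PSC4, 1 rose and 2 fell, with a median log2 fold change of -0.04, a share near the 46.3% of all genes called. Klhl9, a ubiquitin ligase adaptor, fell from 125 ± 12.8 to 75.5 ± 10.3 CPM (SD, n = 3 each; log2 fold change -0.73, edgeR adjusted p = 0.00554), and Mllt3, part of the super elongation complex, fell from 47.9 ± 12.9 to 27.3 ± 1.62 CPM (log2 fold change -0.81, edgeR adjusted p = 0.0115). Elavl2, a neuronal RNA-binding protein, rose from 7.80 ± 2.75 to 19.9 ± 8.41 CPM (log2 fold change 1.35, edgeR adjusted p = 0.0195). Mtap, the gene often lost together with Cdkn2a in tumours, was present in both lines, at 100.3 ± 3.92 CPM in Control-SU PSC4 and at 160 ± 27.0 CPM in Control-PSC-SU KPC4. Its log2 difference in PSC4 was 0.17 (edgeR adjusted p = 0.325). In KPC4, 0 of 5 flanking genes passed in edgeR without the block, 1 was under an unadjusted 0.05, beside 17.0% of all genes, and DESeq2 called 0. With the block Klhl9 was lower (log2 fold change -0.66, edgeR adjusted p = 0.0377) and Focad had a log2 difference of -0.43 (0.127).

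Over all 12 libraries, the genes whose log2 CPM followed that of Ccne1 most closely among 10957 candidates were Azin1 (Pearson's r 0.991), Ccdc134 (0.991) and Siah1b (0.986). The 12 points share 2 lines and 4 media, so these values describe a common pattern across groups as much as across libraries.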
